A study of Capra hircus with 2 samples.

Results

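The miR-23, miR-27 and miR-24 clusters are described here in small RNA libraries labelled as goat natural killer (NK) cells, lymphocytes that kill infected or transformed cells. Members were selected on their names (chi-miR-23a, chi-miR-23b, chi-miR-27a, chi-miR-27b and chi-miR-24, any arm) in a table chosen by the authors' own log2 ratio and q-value between uterus and blood. There were 8 such entries among 590. They were miR-23a, both arms of miR-27a, miR-23b-5p, both arms of miR-27b and both arms of miR-24. The series compares a library labelled as uterine NK cells (uNK) with one labelled as peripheral NK cells (pNK), read here as from blood. Both are of female goats, with no treatment named in the labels. The sources used here state no age, breed, number of animals or surface marker for the separation. With 1 library per group there was no replicate check and no test, so each difference is one between 2 libraries. Intervals of folds and shares are exact 95% Clopper-Pearson intervals on the counts, and those of a change in a ratio of counts are normal intervals on the log scale. Both cover counting error only, as no molecular identifiers are mentioned.

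A miRNA is cut from a hairpin precursor whose left (5p) and right (3p) arms can each give a mature strand; the more abundant strand is loaded into Argonaute proteins and the other is mostly degraded. In mammals the miR-23, miR-27 and miR-24 genes lie side by side in paired paralogous clusters, here called a (miR-23a, miR-27a) and b (miR-23b, miR-27b). The mature 3p strands of miR-27a and miR-27b are near-identical in human and mouse and share their seed, so they recognise largely the same target messages. The b cluster is well known from endothelium and smooth muscle, and the a cluster from blood cells, where miR-23a favours myeloid over lymphoid development in mouse. Both clusters restrain effector programmes of T cells in mouse, and miR-27a-5p represses perforin and granzyme B in human NK cells. In the goat gene table of assembly ARS1.2, miR-23a neighboured miR-27a, and miR-23b neighboured miR-27b and the 1 miR-24 gene of that table. In human and mouse each cluster carries a miR-24 gene and both give the same 3p strand, so miR-24 reads were not credited to either cluster.

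The table was a filtered one, and its filter used the same contrast, so the directions of the members are descriptions. No absolute log2 ratio in it was under 1.01, and the member nearest to that limit was miR-24-3p, at 1.08 in the authors' deposited table. miR-23b-3p and miR-23a-5p were not among the entries, and nothing is said of them. miR-23a carried no arm suffix. The authors' deposited table gave 3 members as higher and 5 lower in uNK, where 38.0% of all 590 entries were higher and 62.0% lower. Among the 314 entries with goat miRNA names, 54.1% were higher and 45.9% lower. Past a log2 ratio of 1 in reads per 1000000 reads of the library (RPM), 2 members were higher and 5 lower, against 36.1% and 62.0% of all entries and 50.6% and 45.9% of the named ones. With 8 members these counts say nothing particular about them. The median log2 RPM ratio was -2.24 over the 8 members, -2.55 over all entries and 1.15 over the named ones, with 0.5 reads in place of a count of 0. With 3 reads in its place the median over all entries was -2.20, and the other medians did not change. What set the members apart from one another was the division by cluster and by arm.

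The libraries held 30063448 reads (pNK) and 31780927 reads (uNK), as implied by the deposited counts and RPM values. The 8 members together made up 7.20% of the reads in pNK and 4.07% in uNK. The listed markers of the cell type that both libraries are labelled with were low in the uterine one. Of the lymphocyte and NK cell markers, 2 of 4 names were listed (miR-150 and miR-155), and their summed level was 20518 RPM in pNK against 186 RPM in uNK, 111-fold lower. Most of the pNK sum was miR-150, at 19052 RPM against 32.2 RPM in uNK, while miR-155-5p stood at 1464 against 153 RPM. These listed markers thus go against the NK label of the uterine library, though only markers that differed between the libraries could be entries. miR-142 and miR-181a were not entries, and nothing is said of them. Markers of other cells differed as well. The myeloid marker miR-223 stood at 28632 against 21.1 RPM over its 2 arms. In pNK it thus lay above the 20518 RPM of the listed lymphocyte and NK cell markers. Smooth muscle and stromal markers (5 of 5 names, 9 arms) summed to 12158 RPM in pNK against 185567 RPM in uNK. The endothelial marker miR-126 summed to 1769 against 10555 RPM, epithelial markers (5 of 5 names) to 257 against 3592 RPM, and red cell markers (2 of 3 names) to 3258 against 9817 RPM. No listed marker arm was at 0 in either library. In bulk samples such as these, fewer cells of a type and less RNA per cell cannot be told apart.

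The abundant members of the a cluster were both lower in the uterine library, and by nearly the same factor. miR-27a-3p had 1394552 reads in pNK (46387 RPM) and 301340 reads in uNK (9482 RPM). It ranked second by count among the named entries of pNK and eighth in uNK, and was 4.89-fold lower in uNK (4.87 to 4.91). miR-23a had 523915 reads in pNK (17427 RPM) and 122106 reads in uNK (3842 RPM), and was 4.54-fold lower (4.51 to 4.56). The neighbours on the a cluster thus kept almost the same proportion to each other. miR-27a-3p was counted 2.66 times as often as miR-23a in pNK and 2.47 times in uNK, a change by a factor of 0.927 (0.920 to 0.934). The markers of lymphocytes and of myeloid cells were lower in the same library, and their part in this difference was not tested.

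The main strand of the b cluster went the other way. miR-27b-3p had 119182 reads in pNK (3964 RPM) and 660708 reads in uNK (20789 RPM), and was 5.24-fold higher in uNK (5.21 to 5.28). It was the 4th most abundant named entry of uNK and the 15th of pNK. Endothelial, stromal, epithelial and red cell markers were all higher in the same library. Their summed levels were 5.97-fold, 15.3-fold, 14.0-fold and 3.01-fold higher, in that order. The part of each in this difference was not tested.

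miR-24, the third family of the clusters, moved least. miR-24-3p had 118949 reads in pNK (3957 RPM) and 208570 reads in uNK (6563 RPM), 1.66-fold higher in uNK (1.65 to 1.67). Its log2 RPM ratio of 0.73 lay under 1, and with a scaling by the median ratio of the entries it was 0.06. The size of its difference thus rests on the scaling. Its sign was the same on each scale used, but no entry that passed the filter could be reversed by these scales. miR-24-5p, the rare strand, had 98 reads in pNK (3.26 RPM) and 258 in uNK (8.12 RPM), 2.49-fold higher (1.97 to 3.18). In pNK, miR-27b-3p and miR-24-3p were counted almost equally often, with a ratio of 1.002. In uNK that ratio was 3.17, a change by a factor of 3.16 (3.13 to 3.19). Against miR-23a of the other cluster, miR-24-3p changed by a factor of 7.52 (7.45 to 7.59). The level change of miR-24-3p thus lay between those of miR-23a and miR-27b-3p.

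**Figure D1:**
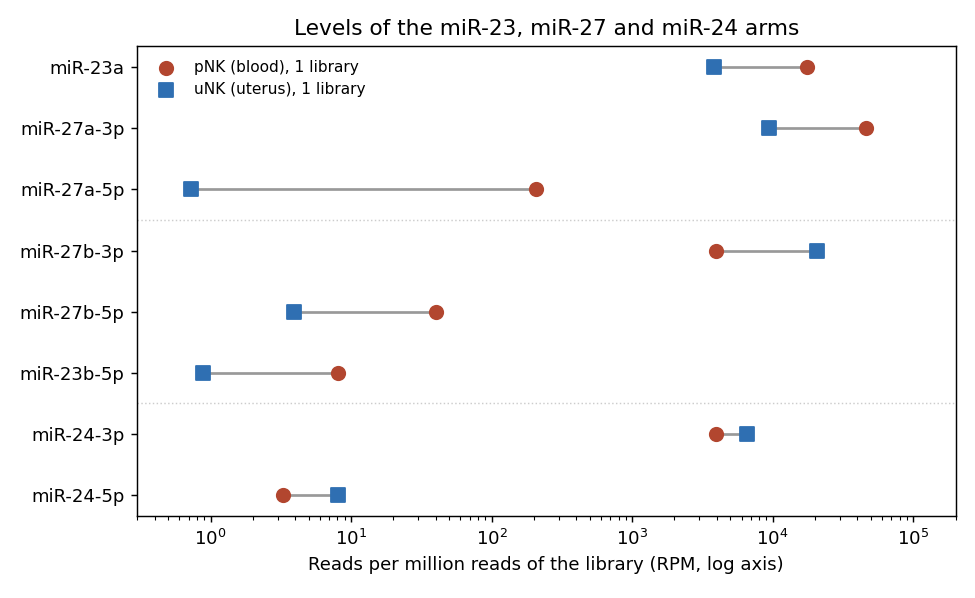
Level of each listed arm in the blood (circle) and uterine (square) NK library, in RPM on a log axis, with 1 library per group and no error bar; dotted lines part the a cluster, the b cluster and miR-24. miR-23a and both miR-27a arms sit lower in uNK, miR-27b-3p sits higher while miR-27b-5p and miR-23b-5p sit lower, and both miR-24 arms sit higher.

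Summed over their listed arms, the a and b clusters changed places. The a cluster (miR-23a and both arms of miR-27a) summed to 64021 RPM in pNK against 13325 RPM in uNK, 4.80-fold lower (4.79 to 4.82). The listed b cluster (miR-23b-5p and both arms of miR-27b) summed to 4013 RPM in pNK against 20794 RPM in uNK, 5.18-fold higher (5.15 to 5.21). Nearly all of this b sum was miR-27b-3p, with 119182 of 120631 reads in pNK and 660708 of 660860 reads in uNK. Its other entries, miR-27b-5p and miR-23b-5p, were lower in uNK. The b cluster held 5.90% of the a plus b reads in pNK (5.87 to 5.93%) and 60.9% in uNK (60.85 to 61.04%). This share lacks the 3p strand of miR-23b, which was not an entry, so it is a share of the listed reads only. It does not depend on the scaling between the libraries.

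The clearest like-for-like comparison was between the 3p strands of miR-27. miR-27b-3p made up 7.87% of the summed miR-27 3p reads in pNK (7.83 to 7.92%) and 68.7% in uNK (68.6 to 68.8%). The ratio of b over a was 0.0855 in pNK and 2.19 in uNK, a change by a factor of 25.7 (25.5 to 25.8). The sum of both changed far less than either copy. It was 50351 RPM in pNK against 30271 RPM in uNK, 1.66-fold lower (1.659 to 1.668). Reads of the near-identical strands assigned to the wrong copy would leave the sum as it is, but reads counted for both copies would raise it. The split between the copies is uncertain in either case. How the authors' counting treated such reads is not stated.

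**Figure D2:**
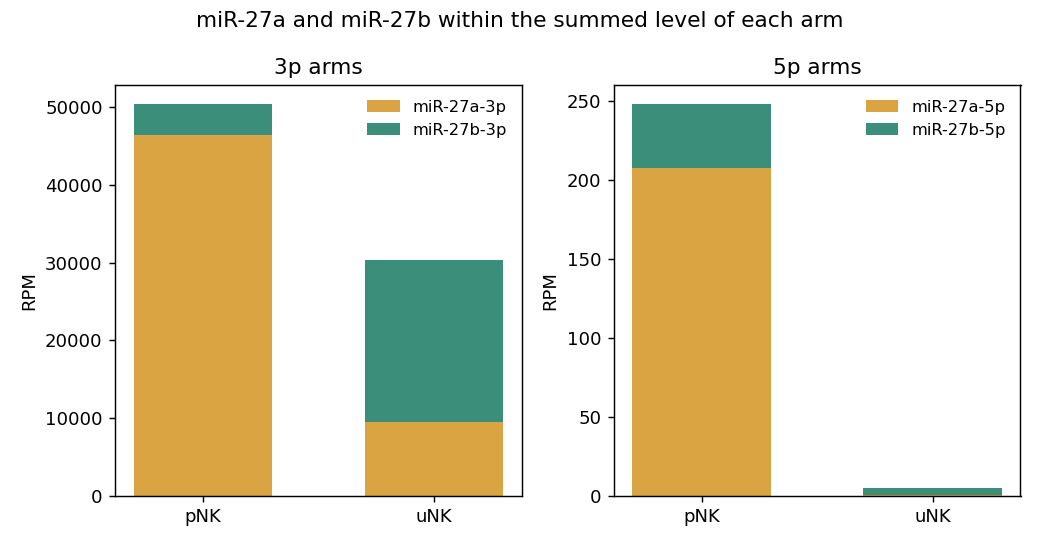
Summed level of miR-27a and miR-27b in each library, in RPM from 0, for the 3p arms (left) and the 5p arms (right, on its own axis); each bar is 1 library and its colours divide it between the copies. The 3p sum went from 50351 to 30271 RPM while its larger part passed from miR-27a to miR-27b, and the 5p sum went from 248 to 4.63 RPM.

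The 3 listed 5p strands of the a and b clusters were lower in the uterine library, those of the b cluster included. miR-27a-5p had 6241 reads in pNK (208 RPM) and 23 in uNK (0.724 RPM), 287-fold lower (191 to 453). miR-27b-5p had 1208 reads in pNK (40.2 RPM) and 124 in uNK (3.90 RPM), 10.3-fold lower (8.55 to 12.5). miR-23b-5p, the listed strand of miR-23b, had 241 reads in pNK (8.02 RPM) and 28 in uNK (0.881 RPM), 9.10-fold lower (6.14 to 14.0). The 5p strands of the neighbours miR-27b and miR-23b were in a ratio of 5.01 in pNK and 4.43 in uNK, and the interval of that change (0.573 to 1.36) includes no change. None of these strands was at 0, but 2 of the 3 had fewer than 30 reads in uNK.

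Set against their own 3p strands, the 5p strands of miR-27a and miR-27b were lower in uNK by nearly the same factor. In miR-27a the 5p strand made up 0.446% of the precursor's reads in pNK (0.435 to 0.457%) and 0.00763% in uNK (0.00484 to 0.0115%). Its ratio to the 3p strand was 58.6-fold lower in uNK (38.9 to 88.3). In miR-27b the 5p strand made up 1.003% in pNK (0.948 to 1.06%) and 0.0188% in uNK (0.0156 to 0.0224%), with a ratio 54.0-fold lower (44.9 to 65.0). The paralogs' 3p strands had gone in opposite directions, yet their arm ratios shifted alike. From the same counts, the b over a ratio of the 5p strands changed by a factor of 27.9 (17.8 to 43.6), which follows from the arm ratios and the 3p change and is no further observation. In miR-24 the 5p strand did not follow this. It made up 0.0823% of the precursor's reads in pNK (0.0668 to 0.1003%) and 0.124% in uNK (0.109 to 0.140%), and its ratio to the 3p strand was 1.501-fold higher in uNK (1.19 to 1.89).

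Arm ratios could be compared for 94 precursors, each having a 5p and a 3p entry of no fewer than 10 reads when the libraries were added. The rarer arm of each was set against the more abundant one, after adding 0.5 reads to each count. The log2 change of that ratio from pNK to uNK had a median of 0.21, with quartiles of -1.05 and 1.22. miR-27a, at -5.84, and miR-27b, at -5.75, held places 2 and 3 from the lowest of the 94, behind miR-29c at -13.41. Only 4 of these precursors lay under -4, miR-26b at -4.72 being the other. miR-24, at 0.58, held place 56. A general loss of rare strands was not seen, as 25 of the 94 ratios were lower in uNK by at least 1 log2 unit and 29 higher. Entries had to pass the authors' filter in both arms to be compared, so the 94 are not all precursors.

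**Figure D3:**
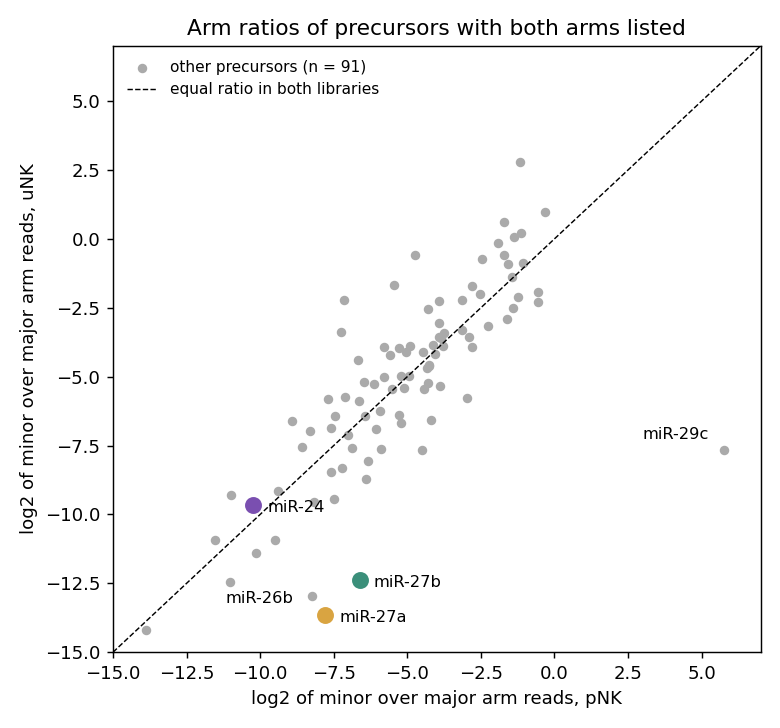
Each point is 1 of 94 precursors, placed by the log2 ratio of its rarer over its more abundant arm in pNK (horizontal) and uNK (vertical); the dashed line marks an equal ratio in both libraries. miR-27a and miR-27b lie 5.84 and 5.75 log2 units under the line, while miR-24 lies 0.58 above it.

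Copies of other duplicated families parted too. Among 14 other families looked at (miR-10, miR-15, miR-16, miR-26, miR-29, miR-30, miR-99, miR-125, miR-133, miR-146, miR-181, miR-196, miR-199 and miR-200), 14 combinations of family and arm had at least 2 listed copies. miR-99, miR-133, miR-146 and miR-181 gave no such combination, while miR-10, miR-29, miR-30 and miR-199 counted with both arms. In 6 of these 14 combinations some copies were higher and others lower in uNK, as with the 3p strands of miR-27. miR-30 parted in both arms. Copies that did not pass the filter are missing, so this is no share of duplicated families at large. The gap between the highest and the lowest copy was 4.68 log2 units for miR-27 3p and 4.80 for miR-27 5p, against a median of 2.70 and a range of 0.31 to 10.30 in the others. All 6 parted combinations had a wider gap than miR-27 3p, the narrowest being 5.51 for miR-10 5p. The 8 that did not part had narrower gaps than miR-27 5p, the widest being 3.03 for miR-199 3p. As the filter removed small ratios, listed copies that part must lie well apart. In the miR-125 family, known from stem cells and immune regulation, miR-125a-5p was 8.17-fold lower and miR-125b-5p 7.35-fold higher. In the miR-10 family, miR-10a-5p was 3.15-fold lower and miR-10b-5p 14.5-fold higher. The miR-200 copies, by contrast, lay within 0.31 log2 units of each other.

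**Figure D4:**
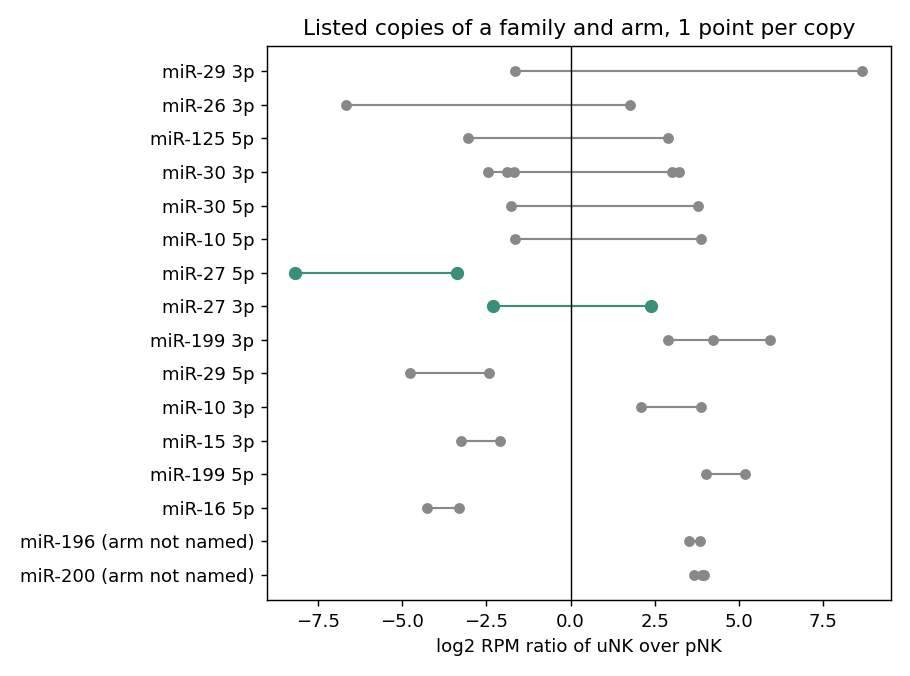
log2 RPM ratio of uNK over pNK for the listed copies of each duplicated family and arm, 1 point per copy, ordered by the gap between copies, with miR-27 in green. The miR-27 3p copies stand on both sides of 0, as do the copies of 6 of the 14 other combinations, and the miR-27 5p copies both stand below 0.

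The genes around the clusters did not all share their direction. Within 50 kb of miR-23a and miR-27a, the goat gene table also places miR-181c and miR-181d, of a family that tunes lymphocyte signalling. miR-181c-5p went from 53.4 RPM in pNK to 106 RPM in uNK, 1.98-fold higher (1.86 to 2.10). miR-181d stood at 20.9 and 63.2 RPM, 3.02-fold higher (2.76 to 3.31). Both were thus higher in the library in which miR-23a and miR-27a-3p were lower. On the side of the b cluster, the let-7a, let-7d and let-7f genes lie on the same chromosome arm in human. The goat gene table placed none of these genes within 50 kb of miR-23b or miR-27b. All 4 of their listed arms were lower in uNK. These were let-7d-5p, at 6980 against 1858 RPM, and the less abundant let-7d-3p, let-7a-3p and let-7f-3p. The opposite arms of let-7a and let-7f were not entries, and nothing is said of them. miR-3074, the other name looked for on that side, was not an entry.

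Among miRNAs with a known role in NK cells, miR-27a-5p belonged to a list that was nearly all lower in uNK. The list was chosen with earlier results of these data known, so its counts are a description only. It left out miR-181c-5p and miR-181d, which were 1.98-fold and 3.02-fold higher in uNK. The list held 15 names, of which 13 were entries with 18 arms, and arms of 1 miRNA were counted separately. Lower in uNK were 17 of these 18 arms and higher 1, and their median log2 RPM ratio was -3.32 against 1.15 over all named entries, of which 45.9% were lower. With miR-181b-3p, which had no read in uNK, set to 3 reads there, the list's median was -3.28. Its most abundant arms were miR-16a-5p, miR-150, miR-16b-5p and miR-378-3p. miR-150, which controls NK cell maturation in mouse, stood at 19052 RPM in pNK against 32.2 RPM in uNK. miR-16a-5p stood at 22492 against 1173 RPM, miR-16b-5p at 6955 against 702 RPM and miR-378-3p at 3350 against 992 RPM. The exception was miR-29c-3p, at 1.46 against 590 RPM. The 287-fold difference of miR-27a-5p was surpassed on this list by miR-150 among the arms lower in uNK with reads in both libraries; miR-181b-3p, with 8 reads in pNK and 0 in uNK, could not be ranked.

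The named entries nearest in log2 RPM ratio to the main strand of each cluster were sought among 167 others with at least 1000 reads in the higher library. With 2 libraries, likeness means a similar ratio and nothing more. Nearest to miR-27a-3p, at -2.29, were miR-34a at -2.28, miR-7-5p at -2.32 and miR-33a-5p at -2.25. Nearest to miR-27b-3p, at 2.39, were miR-409-3p at 2.46, miR-126-5p at 2.50 and miR-450-5p at 2.50. A ratio within 0.1 log2 units was found for 4 entries in the first case and 1 in the second.

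Each member kept its direction on each scale used, which is no check of it. The authors' filter left no entry close enough to 0 to be reversed by these scales. The closest was miR-144-3p, whose log2 RPM ratio of 0.67 was as large as the largest shift. Scaling by the totals of the listed entries raised every log2 ratio by 0.35, and scaling by their median ratio lowered every one by 0.67. miR-27a-3p then ranged from -2.96 to -1.94, miR-23a from -2.85 to -1.84 and miR-27b-3p from 1.72 to 2.74. Since only called miRNAs are listed, these scalings do not rest on unchanged ones.

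**Figure D5:**
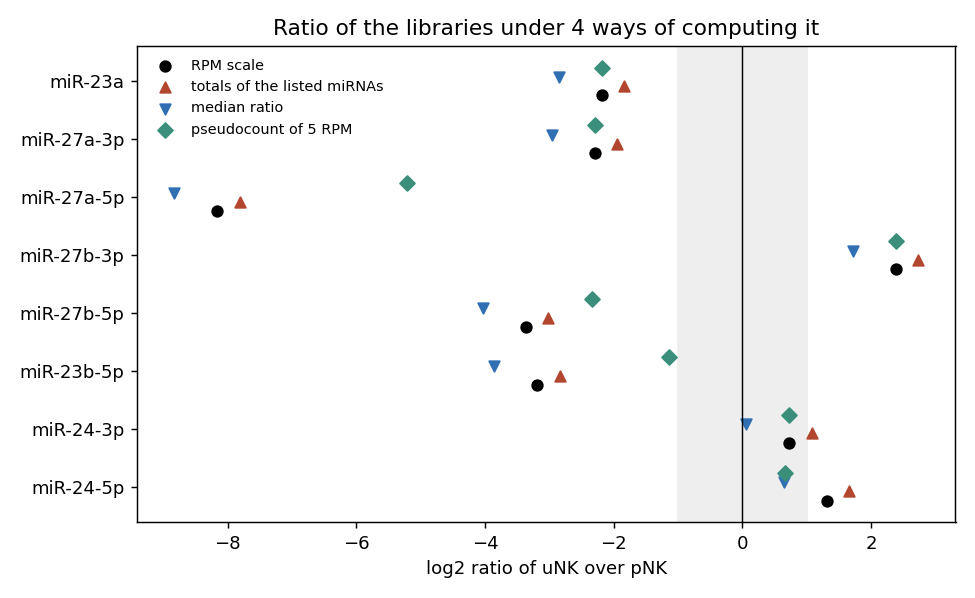
log2 ratio of uNK over pNK for each member on the RPM scale, scaled by the listed totals, scaled by the median ratio and with 5 RPM added to both libraries; the shaded band spans -1 to 1. No member crosses 0, which the filter and the alternatives used made certain. miR-24-3p comes nearest at 0.06, and the rare 5p strands move towards 0 with the added 5 RPM.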

How the data were processed

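Small RNA was sequenced from 1 uNK and 1 pNK library of female goats, grouped by their source names. The labels' protocols name Trizol for the extraction; no source used here names the kit, aligner, build or annotation. The authors' comparison table, named for DEGseq and for a filter on differential expression, gives whole-number read counts, expression values that behave as RPM (a count of 0 is written as 0.001), and, per the file headers, p-values, q-values and a log2 ratio of the authors. Library totals are the median of count over deposited RPM for entries with at least 5000 reads. Folds are ratios of counts over these totals, with Clopper-Pearson 95% intervals; intervals of a change in a ratio are normal intervals on the log scale. Interval code was tested on simulated data. Members, lists and rules for named miRNAs were chosen with earlier results of these data known; named were all members, the 3 entries nearest in ratio to each cluster's main strand and up to 4 abundant members of a context list. The gene table (ARS1.2) served only to find neighbours. Python 3.11.15, numpy 2.4.6, pandas 2.3.3, scipy 1.17.1 and matplotlib 3.10.9 were used.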

Additional observations from a re-analysis of the deposited data

How the results depend on the processing

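No paired analysis was possible because there was 1 library on each side, which also leaves none to drop. No member's log2 ratio changed sign under the alternatives run, and none could. The authors' filter left no absolute log2 ratio under 1.01, which the scalings used were too small to reverse. Adding the same RPM to both libraries cannot change a sign. The kept signs are thus no check of the directions. With the listed totals, miR-27a-3p was -1.94, miR-23a -1.84, miR-27b-3p 2.74 and miR-24-3p 1.08. With the median ratio these were -2.96, -2.85, 1.72 and 0.062, and in the authors' deposited table -1.94, -1.83, 2.74 and 1.08. Each scaling shifts all values by 1 constant. Members past 1 in the higher direction numbered 2 on the RPM scale, 3 with the listed totals, 1 past a log2 ratio of 2 and 1 with the median ratio. The b share was 5.85% in pNK with 3p strands or unnamed arms, 7.91% and 68.7% (pNK and uNK) for miR-27 alone, and 0.0460% and 0.0229% for miR-23 alone, where only the 5p strand of miR-23b was an entry. Adding 5 RPM moved miR-27a-5p from -8.16 to -5.22 and miR-23b-5p from -3.19 to -1.15. With at least 100 reads per arm (added for this ordering with the data already seen) 67 precursors were left and miR-27a and miR-27b kept places 2 and 3. Depth limits the rare 5p strands most.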

Other observations

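In the authors' deposited table, the q-value was lower than the p-value of the same entry for 427 of 590 entries, and both were 0 for the other 163. Of the members, 5 had a p-value of 0. miR-24-5p had the largest p-value of the 8, at 7.14e-25, with a q-value of 6.91e-26. These values come from 1 library per group and carry no spread between animals.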
